A study of Mus musculus with 18 samples.

Results

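Gene totals of Snord67KO-2 were compared with those of Snord67KO-1, both of them clones of 4T1 cells, a mouse breast cancer line, in which Snord67 was knocked out. The members are the genes with at least 50 counts over the 6 oxidized libraries of both clones, after positions marked mispriming and the gene Rn45s (the ribosomal RNA precursor) were left out. These were 5048 of the 19696 genes listed outside Rn45s. The counts come from ribose oxidation sequencing (RibOxi-seq), in which poly(A) RNA is fragmented, fragments with an unprotected 3′ end are removed by oxidation, and the 3′ ends of the remaining fragments are counted at each position. A gene total is the sum of these ends over the gene, so more RNA of a gene and more surviving ends per RNA cannot be told apart.

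All cells were 4T1 cells transduced with mCherry and Renilla luciferase and kept in medium with puromycin. 4T1 WT carried no Snord67 deletion. Snord67KO-1 and Snord67KO-2 each came from 1 cell after paired CRISPR/Cas9 nicking at Snord67, so each genotype is 1 clone, and an effect of the deletion and a difference between clones of other origin cannot be told apart. The 3 oxidized libraries of each clone and of 4T1 WT are biologic replicates by the paper's methods. Their labels give a replicate number and do not say that the cultures were independent. The p-values therefore measure the spread between these libraries. Of 18 samples, 9 had counts, and the control libraries without oxidation were not analysed here.

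Snord67 is a box C/D small nucleolar RNA, a class that guides 2′-O-methylation of ribosomal and small nuclear RNA, and it lies in an intron of Ckap5, which codes for a microtubule polymerase. Carcinoma cells such as 4T1 carry epithelial genes (keratins, E-cadherin, claudins) together with mesenchymal genes such as vimentin, and cells of the same line can differ along this axis. 4T1 cells are also known to secrete granulocyte colony-stimulating factor (Csf3) and neutrophil-attracting chemokines. Acute-phase and inflammatory genes of this kind are classic targets of NF-κB and C/EBP factors.

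The libraries of Snord67KO-2 were the shallower ones, with 140603, 252657 and 297006 counts in genes, against 336760 to 509242 in Snord67KO-1 and 401459 to 538635 in 4T1 WT. A gene with 0 counts could have up to 3, which is 26.8 counts per 1000000 (CPM, scaled with TMM factors) in Snord67KO-2 replicate 1 and 5.61 CPM in Snord67KO-1 replicate 1, for counting error only. Positions in Snord67 itself (chromosome 2, 91596070 to 91596180, plus strand) held 1 count, in Snord67KO-1 replicate 1, and 0 counts in the 3 libraries of 4T1 WT, so the deletion could not be checked at this depth. Ckap5 had 50.5, 59.5 and 50.9 CPM in Snord67KO-1 and 80.4, 73.4 and 70.5 CPM in Snord67KO-2. Its log2 fold change was 0.47 ± 0.27 (SE), which did not pass the test (adjusted p = 0.307). The epithelial keratins Krt8 and Krt18 were detected in all 9 libraries, with means of 369.8 and 691 CPM in Snord67KO-1 and 274 and 514 CPM in Snord67KO-2.

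Snord67KO-1 replicate 1 stood apart from the other libraries. The 362 listed olfactory and vomeronasal receptor genes, which are not known to be expressed in mammary cells, summed to 1010.1 CPM there, to 389.7 and 430.0 CPM in the other libraries of Snord67KO-1, to 152 to 239.8 CPM in Snord67KO-2 and to 121 to 135 CPM in 4T1 WT. The clones did not overlap (two-sided exact permutation test, p = 0.1, the smallest p that 3 against 3 libraries allow). Counts outside annotated exons made up 57.4% to 59.3% of gene counts in Snord67KO-1 and 57.3% to 61.5% in Snord67KO-2 (exact permutation p = 0.5). Rn45s held 23.6% ± 1.32 (SD, n = 3) and 29.4% ± 3.03 (SD, n = 3) of all counts (exact permutation p = 0.1).

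The clones differed in 487 genes. In Snord67KO-2, 217 genes were higher and 270 were lower than in Snord67KO-1 (edgeR's quasi-likelihood test, Benjamini-Hochberg adjusted p below 0.05), which is 9.65% of the genes tested, 4.3% higher and 5.35% lower. The higher genes were led by secreted and inflammatory genes (Lcn2, Cxcl1, Csf3, Ptgs2, Mmp9, C3) and by epithelial genes (Cldn4, Epcam), and those lower included Vim, S100a4, Vcam1 and Mgp. The 3 libraries of a clone did not overlap with those of the other in 216 of the higher and 267 of the lower genes, against 30.1% of all genes tested. The calls were made from these same libraries, so this lack of overlap is no separate support. The median absolute log2 fold change was 1.01 in the higher and 1.88 in the lower genes. The number of calls was 165 with DESeq2, of which 160 were shared, and 111 without Snord67KO-2 replicate 2. The split between directions moved with the scaling, to 77 higher and 535 lower genes with unscaled library sizes, to 160 and 336 with upper-quartile factors and to 220 and 49 with limma voom.

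**Figure D1:**
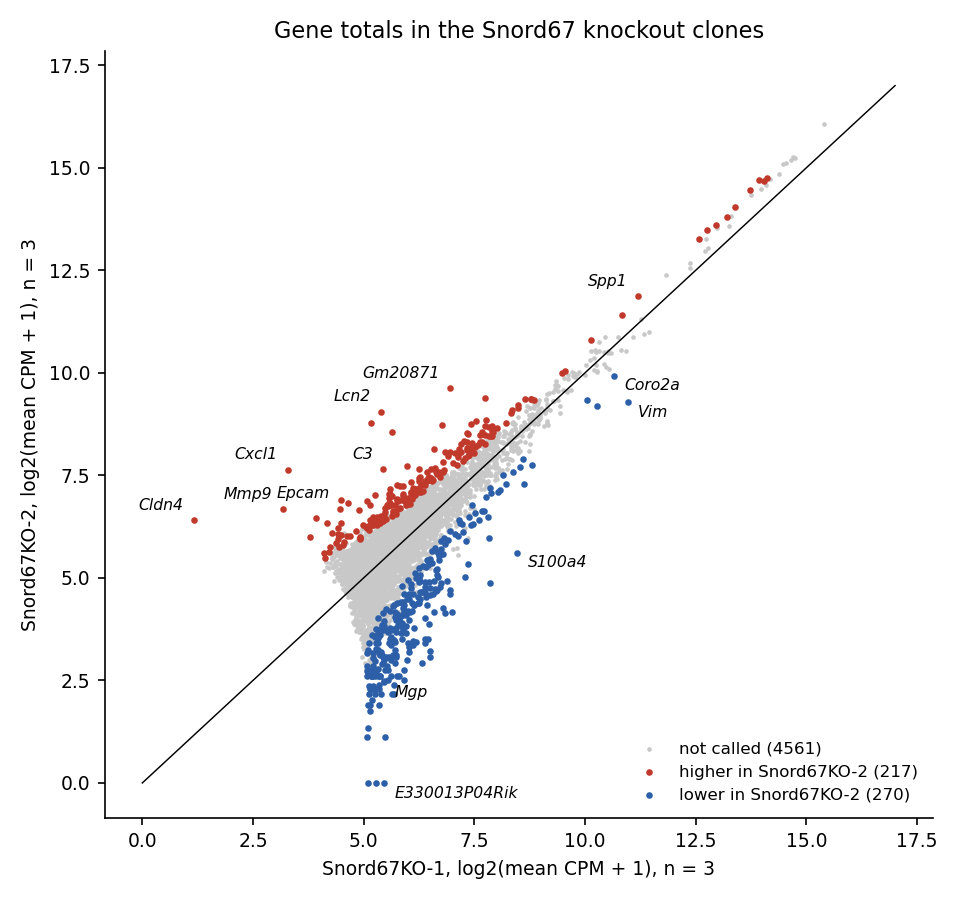
Level of each of 5048 genes in Snord67KO-1 (x axis) and Snord67KO-2 (y axis), as log2 of the mean CPM of 3 libraries plus 1, with the diagonal of equal levels. The 217 higher genes (red) and 270 lower genes (blue) lie off the diagonal, and Cldn4 sits near 0 in Snord67KO-1 alone.

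Several secreted and inflammatory genes were higher in Snord67KO-2. Of 18 tested cytokine, chemokine and acute-phase genes, 7 were higher in Snord67KO-2, 2 were lower and 9 did not pass the test. Their median log2 fold change was 0.41, where the median over all genes tested was within 0.01 of 0. Over all genes tested, 4.3% were higher and 5.35% lower, and with positions inside exons alone 3.81% and 3.75%. These shares are the background for the counts of every list. Lcn2 (lipocalin 2, an iron-carrier binding protein of the acute phase) had 61.7, 29.7 and 32.1 CPM in Snord67KO-1 and 625, 505 and 462 CPM in Snord67KO-2. The log2 fold change of Lcn2 was 3.60 ± 0.23 (SE, adjusted p = 7.11e-09), and 4T1 WT, at 38.3 to 44.2 CPM, was level with Snord67KO-1.

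The lead genes of this group lie on chromosomes 2 (Lcn2, ENSMUSG00000026822.14, 32384633 to 32388252), 5 (Cxcl1, ENSMUSG00000029380.11, 90891241 to 90893115) and 11 (Csf3, ENSMUSG00000038067.2, 98701263 to 98703629) in GENCODE M21 (GRCm38), and 0.270%, 0% and 2.75% of their counts were outside exons. Cxcl1, a chemokine that attracts neutrophils, had 11.2, 0 and 15.1 CPM in Snord67KO-1 and 169.7, 220.3 and 205 CPM in Snord67KO-2, a log2 fold change of 4.30 ± 0.36 (SE, adjusted p = 2.48e-07). Csf3, which codes for granulocyte colony-stimulating factor, had 35.5, 56.5 and 13.2 CPM against 366, 436 and 515 CPM (log2 fold change 3.76 ± 0.28 SE, adjusted p = 3.18e-08). In each gene the lowest library of Snord67KO-2 lay far above the highest of Snord67KO-1 and of 4T1 WT, where Cxcl1 reached 29.5 CPM and Csf3 reached 159 CPM.

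Ptgs2, the inducible cyclooxygenase of prostaglandin synthesis, had 56.1, 41.6 and 49.0 CPM in Snord67KO-1, 107, 140.4 and 127 CPM in 4T1 WT and 393, 386 and 349 CPM in Snord67KO-2. The groups did not overlap, with 4T1 WT between the clones, and the log2 fold change between clones was 2.89 ± 0.19 (SE, adjusted p = 7.11e-09). C3, the central complement component, rose 4.54-fold, from 42.6 ± 6.06 to 200.4 ± 12.2 CPM (SD, n = 3 libraries per clone; edgeR adjusted p = 2.76e-06). Lif, a cytokine of the interleukin-6 family, rose 4.93-fold, from 12.7 ± 3.88 to 62.8 ± 22.0 CPM (SD, n = 3 per clone; edgeR adjusted p = 0.00173). Csf1, the macrophage growth factor, had the smallest fold change of the 7 (log2 fold change 0.93, adjusted p = 0.0299). It lost the call in 11 of 19 alternatives, DESeq2 included (adjusted p = 0.201), and was at 0.35 with marked positions kept (adjusted p = 0.477).

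The 2 genes of this list that were lower in Snord67KO-2 act on other cells by adhesion or through the Csf1 receptor. Vcam1, an adhesion receptor for leukocytes, had 209.5, 229 and 245 CPM in Snord67KO-1 and 89.3, 32.1 and 63.5 CPM in Snord67KO-2 (log2 fold change -1.98, adjusted p = 6.14e-05). Il34, another ligand of the Csf1 receptor, fell from 37.0 ± 7.57 to 10.7 ± 2.92 CPM (SD, n = 3 per clone; edgeR adjusted p = 0.0389), with 55.2% of its counts outside exons. Il34 passed the count filter through Snord67KO-1 alone, so this difference follows in part from the filter. The transcription factor genes Cebpb and Junb were in no list and were named after their values were seen. Cebpb had 35.5, 26.8 and 49.0 CPM in Snord67KO-1 and 152, 110.2 and 127 CPM in Snord67KO-2 (log2 fold change 1.72, adjusted p = 0.000679). Junb, an AP-1 subunit, had 39.3, 47.6 and 54.7 CPM against 143, 106 and 176 CPM (log2 fold change 1.60, adjusted p = 0.000896).

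The promoters of 3 lead genes are shown because factors of the NF-κB, C/EBP and AP-1 families are known regulators of such genes. They are 250 bases before to 50 bases after the start in RefSeq (GRCm38.p6), written along the gene. Capitals mark matches on either strand to NF-κB, to C/EBP (TTGCNNAA) or to AP-1 (TGANTCA). Cxcl1 (chr5:90890995-90891294, plus strand) holds overlapping NF-κB matches, Lcn2 (chr2:32387690-32387989, minus strand) holds 1 C/EBP match, and Vim (chr2:13574061-13574360, plus strand), which moved the other way, holds 3 NF-κB matches, of which 2 overlap.
Cxcl1: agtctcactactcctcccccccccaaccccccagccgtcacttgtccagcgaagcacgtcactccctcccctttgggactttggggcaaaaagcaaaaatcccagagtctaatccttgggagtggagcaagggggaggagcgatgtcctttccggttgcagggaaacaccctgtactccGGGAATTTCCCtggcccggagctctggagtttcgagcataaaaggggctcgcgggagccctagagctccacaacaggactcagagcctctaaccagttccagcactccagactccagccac
Lcn2: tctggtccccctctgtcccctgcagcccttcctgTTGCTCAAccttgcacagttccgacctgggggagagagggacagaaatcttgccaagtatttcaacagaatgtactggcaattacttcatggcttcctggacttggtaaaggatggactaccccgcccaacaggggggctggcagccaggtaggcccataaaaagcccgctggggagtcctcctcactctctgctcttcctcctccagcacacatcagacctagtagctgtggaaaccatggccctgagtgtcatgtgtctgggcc
Vim: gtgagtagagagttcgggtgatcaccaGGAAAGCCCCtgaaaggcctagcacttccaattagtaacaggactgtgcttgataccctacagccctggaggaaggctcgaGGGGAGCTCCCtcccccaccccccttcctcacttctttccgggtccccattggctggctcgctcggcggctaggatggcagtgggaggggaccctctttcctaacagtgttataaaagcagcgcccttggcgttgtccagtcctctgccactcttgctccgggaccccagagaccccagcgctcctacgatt

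Promoter windows were found for 369 of the called genes. An NF-κB match was present in 11.8% of the higher and 13.6% of the lower genes, against 13.4% of all tested genes with a window and 8.46% of all 32851 windows. C/EBP matches were in 9.55% of the higher and 12.04% of the lower genes (9.52% of tested genes, 10.8% of all windows). AP-1 matches were in 5.62% and 8.38% (6.46% of tested genes, 7.81% of all windows). None of these words was more frequent in the promoters of the higher genes than in those of the lower genes.

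Of 16 tested epithelial genes, 5 were higher in Snord67KO-2 (Cldn4, Epcam, St14, Cdh1 and Krt7), 0 were lower and 11 did not pass the test, with a median log2 fold change of 0.38. DESeq2 called 2 of them, and with positions inside exons alone 5 of 12 were higher and 2 lower. Cldn4, a tight junction protein, was nearly missing from Snord67KO-1, at 1.87, 0 and 1.89 CPM (2 counts in all), while Snord67KO-2 had 62.5, 115 and 74.0 CPM and 4T1 WT 112, 159 and 118 CPM. The pooled ratio of the clones was 60.5, with a 95% interval of 15.9 to 513 for counting error only, and the adjusted p was 2.74e-06. Cldn4 passed the count filter through Snord67KO-2 alone, so this difference follows in part from the filter. The clone that differs from 4T1 WT in Cldn4 was Snord67KO-1 (log2 fold change -6.19, adjusted p = 4.83e-08), and Snord67KO-2 did not pass that test (-0.58, adjusted p = 0.246).

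Epcam, an epithelial adhesion molecule, had 22.4, 14.9 and 26.4 CPM in Snord67KO-1 and 80.4, 110.2 and 116 CPM in Snord67KO-2 (log2 fold change 2.25 ± 0.31 SE, adjusted p = 0.000137). Cdh1, which codes for E-cadherin, had 65.5, 71.4 and 69.8 CPM against 152, 165 and 106 CPM (log2 fold change 0.99, adjusted p = 0.0116). Both clones were apart in every library. The keratin Krt7 and the membrane protease St14 rose by 0.95 and 1.30 on the log2 scale (adjusted p = 0.0103 and 0.0189). Krt8 and Krt18, the main simple-epithelium keratins, had log2 fold changes of -0.44 and -0.45 and did not pass the test (adjusted p = 0.0992 and 0.0972). With positions inside exons alone both were lower in Snord67KO-2, by -0.64 each (adjusted p = 0.00581 each), so the list then held 5 higher and 2 lower genes.

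Of 11 tested mesenchymal genes, 2 were lower (Vim and S100a4), 1 was higher (Cald1) and 8 did not pass the test, with a median of -0.33. With positions inside exons alone 4 of 10 were lower and 1 higher. S100a4, a calcium-binding protein linked to cell motility, had 367, 345 and 343 CPM in Snord67KO-1 and 53.6, 55.1 and 35.3 CPM in Snord67KO-2, a log2 fold change of -2.93 ± 0.22 (SE, adjusted p = 3.18e-08). 4T1 WT lay lower still, at 11.8 to 20.1 CPM. S100a4 (ENSMUSG00000001020.8) spans 90603771 to 90606045 on chromosome 3 and Vim (ENSMUSG00000026728.9) spans 13573927 to 13582826 on chromosome 2. Vim, the mesenchymal intermediate filament, had 1861, 2118 and 2010.3 CPM in Snord67KO-1, 679, 615 and 578 CPM in Snord67KO-2 and 251 to 346 CPM in 4T1 WT. Its log2 fold change between clones was -1.69 ± 0.16 (SE, adjusted p = 7.69e-07). Both clones were above 4T1 WT in Vim (adjusted p = 7.53e-09 and 0.00172) and in S100a4 (1.32e-09 and 0.0209), and Snord67KO-1 was the higher one. Cald1, an actin-binding protein, was the member that rose (log2 fold change 0.64, adjusted p = 0.0182).

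S100 proteins and annexins are calcium-dependent partners at the membrane. Of 12 tested genes, 3 were lower (S100a4, S100a6, S100a10), 2 were higher (Anxa1, Anxa3) and 7 did not pass the test. S100a6 had 853, 1205 and 1113 CPM in Snord67KO-1 and 625, 711 and 603 CPM in Snord67KO-2 (log2 fold change -0.71, adjusted p = 0.0101). With each position counted once its log2 fold change was -0.12 (adjusted p = 0.727), and leaving out any 1 library of Snord67KO-2 also ended the call. S100a10 fell by 0.61 on the log2 scale (adjusted p = 0.0313). Anxa1 had 196, 241 and 213 CPM against 536, 427 and 423 CPM (log2 fold change 1.07, adjusted p = 0.000403). Anxa3 rose by 1.21 (adjusted p = 0.000141). All 3 S100 genes are on chromosome 3, where 29.9% of the tested genes had a log2 fold change above 0.

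**Figure D2:**
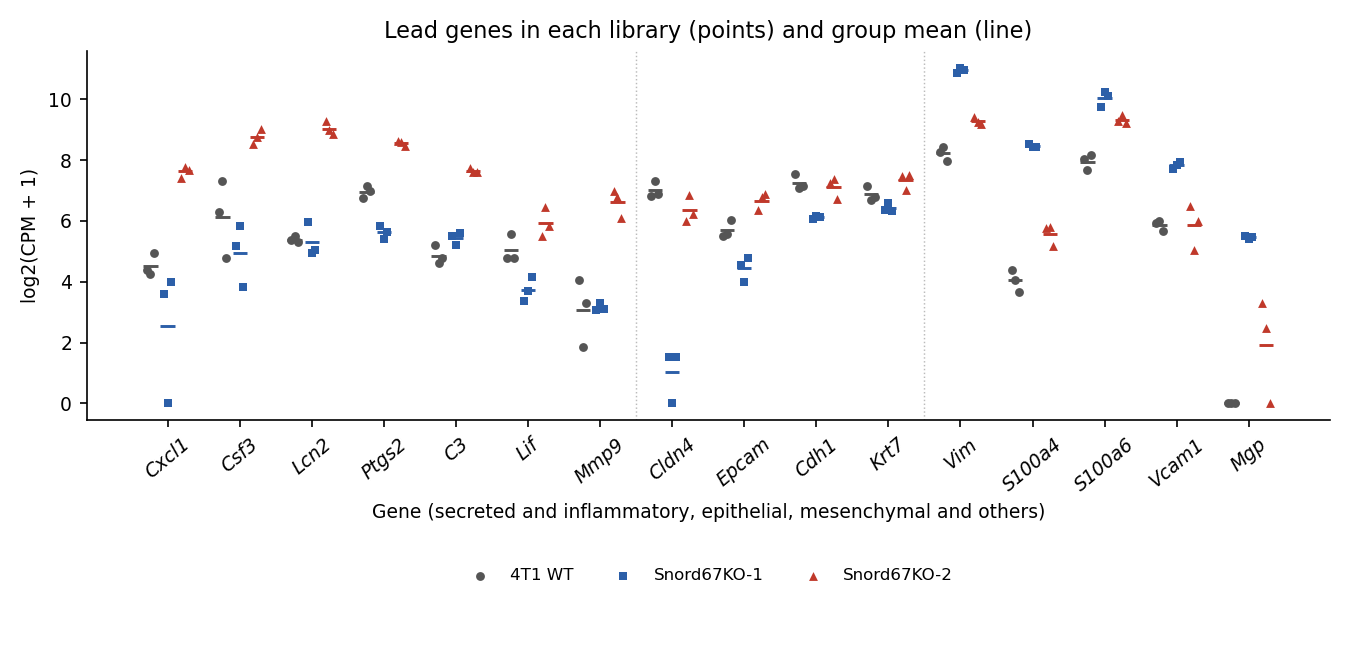
Level of each lead gene in each library, as log2(CPM + 1), with points for libraries and a line for the mean of the 3 points. Snord67KO-2 (triangles) lies above both other groups from Cxcl1 to Mmp9, except that it overlaps 4T1 WT for Lif, Snord67KO-1 (squares) is lowest for Cldn4 and Epcam, and Snord67KO-1 is highest for Vim, S100a4, S100a6, Vcam1 and Mgp.

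Genes of the extracellular matrix moved both ways. Of 35 tested, 7 were higher, 5 were lower and 23 did not pass the test, with a median of 0.20. Mmp9, a gelatinase, had 7.48, 8.92 and 7.54 CPM in Snord67KO-1 and 125, 110.2 and 67.0 CPM in Snord67KO-2, a log2 fold change of 3.54 ± 0.40 (SE, adjusted p = 1.26e-05). Mmp9 passed the count filter through Snord67KO-2 alone, so this difference follows in part from the filter. Serpine2, an inhibitor of serine proteases, had 31.8, 38.7 and 32.1 CPM against 98.3, 106 and 119.9 CPM (log2 fold change 1.69, adjusted p = 0.000679). Spp1 (osteopontin, a secreted phosphoprotein) was high in both clones, at 2125 to 2595 CPM in Snord67KO-1 and 3480.2 to 4002 CPM in Snord67KO-2, and rose by 0.67 between them (adjusted p = 0.01). In 4T1 WT it had 147 to 174 CPM, below both clones (adjusted p = 2.78e-10 and 2.64e-11).

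The lower matrix genes were Mgp, Col6a1, Col5a1, Ltbp1 and Col18a1. Mgp, an inhibitor of calcification, had 44.9, 41.6 and 43.4 CPM in Snord67KO-1 and 8.93, 4.59 and 0 CPM in Snord67KO-2, or 61 counts against 2, and was at 0 in every library of 4T1 WT. The pooled ratio of the clones was 13.4 (95% interval 3.54 to 113 for counting error only, adjusted p = 0.00224). Mgp passed the count filter through Snord67KO-1 alone, so this difference follows in part from the filter. Col6a1, a chain of collagen VI, fell from 45.1 ± 10.1 to 12.2 ± 6.84 CPM (SD, n = 3 per clone; edgeR adjusted p = 0.0182). It also passed the count filter through Snord67KO-1 alone. Col18a1, a basement membrane collagen, fell from 171 ± 10.2 to 76.9 ± 35.7 CPM (SD, n = 3 per clone; edgeR adjusted p = 0.0114).

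All 21 tested genes of box C/D snoRNPs and the nucleolus had a positive log2 fold change, with a median of 0.51, and 2 passed the test. Over all genes tested, 2514 of 5048 had a positive log2 fold change. DESeq2 called 1 of the 21, and with positions inside exons alone 1 of 15 was called. With unscaled library sizes, which move the median of all genes to -0.30, the median of the 21 genes was 0.22, and members near 0 fell below it. Nop56, a core protein of box C/D snoRNPs, had 52.4, 56.5 and 32.1 CPM in Snord67KO-1 and 143, 133 and 119.9 CPM in Snord67KO-2 (log2 fold change 1.48 ± 0.26 SE, adjusted p = 0.00176). Nop58, its partner in the same particle, rose by 0.80 (adjusted p = 0.0237). Nop58 lost the call in 8 of 19 alternatives, among them DESeq2 (adjusted p = 0.152) and positions inside exons (edgeR adjusted p = 0.0797). In both genes 4T1 WT (means of 121 and 263 CPM) was above Snord67KO-1 by the test (adjusted p = 0.000518 and 0.000546).

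Of 64 splicing genes, 5 were higher and 0 were lower, with a median of 0.30. Over all genes tested, 4.3% were higher and 5.35% lower. Son, a nuclear speckle protein, had 155, 128 and 117 CPM in Snord67KO-1 and 277, 248 and 268 CPM in Snord67KO-2 (log2 fold change 0.97 ± 0.18 SE, adjusted p = 0.00232), with 4T1 WT higher than both at 401 to 419 CPM. Snrnp70, a U1 snRNP protein, Hnrnpf, Srsf6 and Ddx17 were the other splicing genes that rose. Of 73 cytosolic ribosomal protein genes, 4 were higher and 0 lower (median 0.08), so most did not pass the test. With unscaled library sizes the median of splicing genes was within 0.01 of 0 and that of ribosomal protein genes was -0.21. With positions inside exons alone 3 of 62 splicing genes were higher and 1 lower. Of 73 ribosomal protein genes, 2 were then higher and 1 lower.

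Of 7 tested noncoding RNA genes, 4 were higher and 1 was lower. Neat1, the scaffold RNA of paraspeckles, had 215, 238 and 256 CPM in Snord67KO-1 and 393, 418 and 430.2 CPM in Snord67KO-2 (log2 fold change 0.81, adjusted p = 0.00286). The snoRNA host genes Snhg1, Snhg5 and Gas5 rose by 1.11, 1.02 and 0.54 (adjusted p = 0.00144, 0.0105 and 0.0406). Gas5 lost the call in 13 of 19 alternatives, among them DESeq2 (adjusted p = 0.277) and positions inside exons (0.34, adjusted p = 0.182), and was at 0.24 with unscaled library sizes (adjusted p = 0.35). Pvt1 fell by 0.97, with 81.4% of its counts outside exons (adjusted p = 0.0424).

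Of 28 chaperone and stress-response genes, 6 were higher and 0 were lower (median 0.25). With positions inside exons alone 3 of 27 were higher and 1 lower. Atf4, the transcription factor of the integrated stress response, had 82.3, 80.3 and 126 CPM in Snord67KO-1 and 161, 211 and 239.8 CPM in Snord67KO-2 (log2 fold change 1.11, adjusted p = 0.0043). Its known targets Psat1 (serine synthesis) and Asns (asparagine synthesis) rose by 1.05 and 0.94 (adjusted p = 0.000984 and 0.0258). Any part of Atf4 in this was not tested. Psat1 is on chromosome 19 and Asns on chromosome 6, where 74.4% and 68.6% of the tested genes had a log2 fold change above 0. Asns lost the call in 8 of 19 alternatives, DESeq2 included (adjusted p = 0.129). Hspd1, a mitochondrial chaperonin, rose from 213 ± 23.8 to 419 ± 53.2 CPM (SD, n = 3 per clone; edgeR adjusted p = 0.00127). The endoplasmic and mitochondrial Hsp70 chaperones Hspa5 and Hspa9 were the other members that rose, by 0.50 and 0.62.

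Of 40 tested cell cycle genes, 1 was higher, 3 were lower and 36 did not pass the test (median -0.17), against 4.3% higher and 5.35% lower over all genes. With positions inside exons alone 7 of 37 were lower and 1 was higher, against 3.75% lower and 3.81% higher over all genes. Mki67, a proliferation marker named after its values were seen, had a log2 fold change of -0.82 with all positions (adjusted p = 0.0505) and an adjusted p of 0.00629 inside exons. Myc, a transcription factor of growth, had 37.4, 65.4 and 54.7 CPM in Snord67KO-1 and 98.3, 147 and 113 CPM in Snord67KO-2 (log2 fold change 1.24, adjusted p = 0.00725), and 4T1 WT was above both at 212 to 271 CPM. Ccna2 (cyclin A2) and Smc4 (a condensin subunit) fell by 1.08 and 0.94 (adjusted p = 0.0091 and 0.00274). Both are on chromosome 3. Ncapg, another condensin subunit, had 271 CPM in replicate 2 of Snord67KO-1 against 96.2 and 105 CPM in the others, with 35.5% of its counts at 1 position. Without that position its adjusted p was 0.0831.

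Among 20 genes of oxidative stress and metals, Mt2 (a metallothionein), Tfrc (the transferrin receptor) and Ftl1 (ferritin light chain) rose by 1.21, 0.88 and 0.71, and 0 fell (median 0.14). Of 9 interferon and antigen presentation genes, B2m, the light chain of MHC class I, rose by 0.65 (adjusted p = 0.0219), and 0 fell (median -0.11). DESeq2 did not call B2m (adjusted p = 0.0874). With positions inside exons alone H2-K1 of the same list was lower (-0.59, edgeR adjusted p = 0.0282). Of 22 integrins and adhesion receptors, Cd9 and Cd44 were higher and 0 were lower (median 0.09). With positions inside exons alone 1 of these 22 was higher and 1 lower. For the genes of oxidative stress and metals these numbers were 2 and 1 of 20. No gene passed the test of edgeR among 16 glycolysis genes (median 0.16), 16 cholesterol and fatty acid synthesis genes (-0.20) and 18 lysosomal genes (-0.33), where 5, 2 and 4 genes had an unadjusted p below 0.05. DESeq2 also called 0 genes of these lists, and limma voom called 0, 0 and 1. With positions inside exons alone edgeR called 1 glycolysis gene, 0 cholesterol genes and 2 lysosomal genes, all lower.

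**Figure D3:**
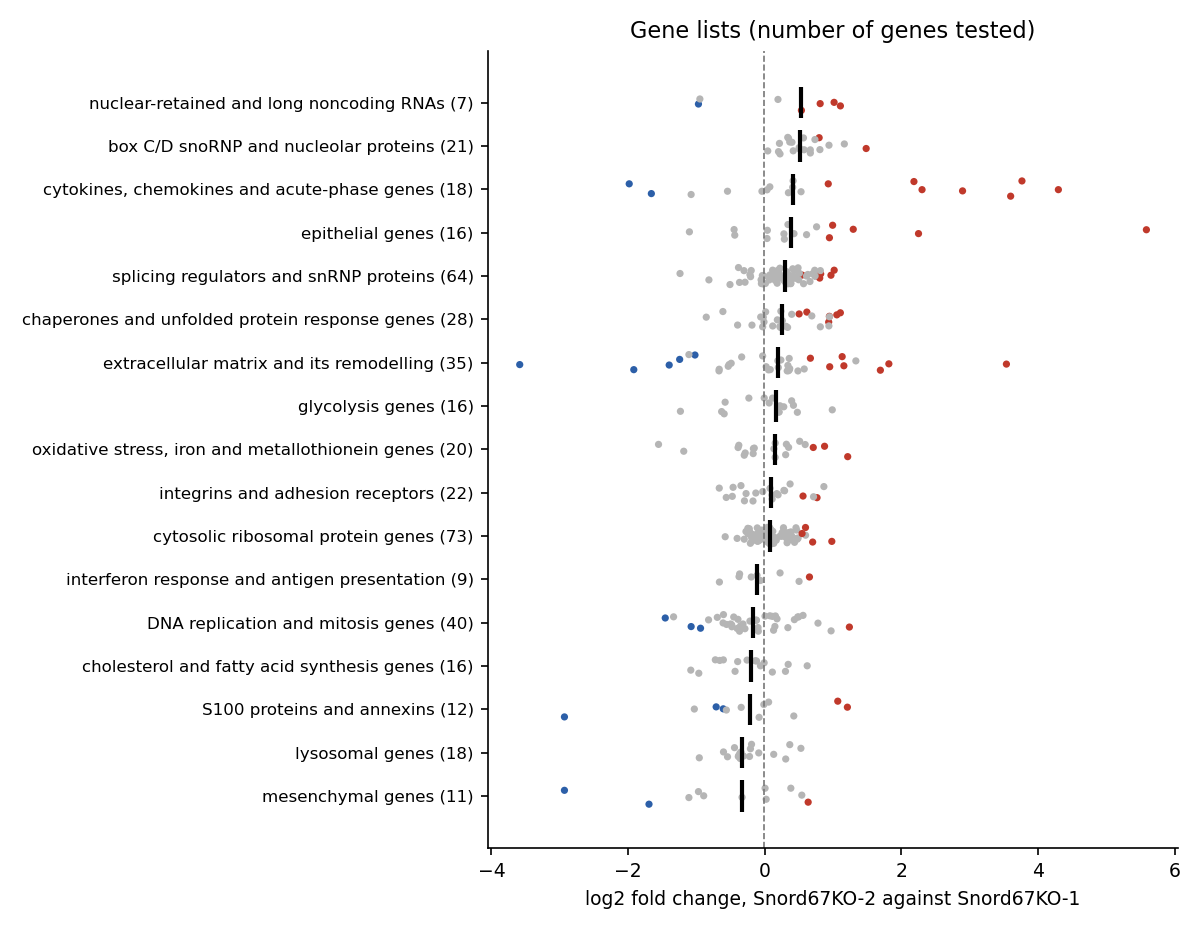
Log2 fold change of each tested gene in 17 gene lists, ordered by their median (black bar), with called genes in red (higher in Snord67KO-2) and blue (lower) and the median of all genes as a dashed line. Cytokine, matrix and epithelial genes spread widest, and ribosomal protein genes stay between -0.58 and 0.98.

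Other genes with large differences were outside these lists. Msn (moesin, a link between membrane and actin, named after its values were seen) had 198, 202 and 236 CPM in Snord67KO-1 and 804, 592 and 599 CPM in Snord67KO-2 (log2 fold change 1.61, adjusted p = 2.74e-06). Smox (spermine oxidase) and Neurl3 (a ubiquitin ligase) rose 5.68-fold and 6.01-fold (adjusted p = 6.52e-05 and 0.000181). Cp (ceruloplasmin, a copper-binding ferroxidase) and Nt5e (CD73, which makes adenosine), named after their values were seen, rose by 1.29 and 1.30 (adjusted p = 6.14e-05 for each). Both were also above 4T1 WT in Snord67KO-2, by 2.72 and 1.64 on the log2 scale. Among lower genes with their counts inside exons, also named after their values were seen, Dmp1 (a phosphoprotein of mineralized matrix) had 95.4, 92.2 and 162 CPM in Snord67KO-1 and 17.9, 32.1 and 38.8 CPM in Snord67KO-2 (log2 fold change -1.86, adjusted p = 0.00227), and 0 to 5.90 CPM in 4T1 WT. Nptx1, a neuronal pentraxin, had 133, 169.6 and 183 CPM against 53.6, 36.7 and 28.2 CPM (log2 fold change -2.15, adjusted p = 8.14e-05). Wwtr1 (TAZ, a co-activator of the Hippo pathway) fell by 0.98 (adjusted p = 0.00274).

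The lower genes were of another make-up than the higher genes. Among called genes with a gene model, 183 of 259 lower genes (70.7%) had most of their counts outside exons, against 31 of 214 higher genes (14.5%) and 20.6% of all tested genes with a model. The median length of the lower genes was 320.1 kb, against 27.0 kb for the higher genes. Of 170 genes longer than 500 kb, 80 were lower in Snord67KO-2 and 1 was higher. These 170 genes held 3.18% of the kept counts in Snord67KO-1 replicate 1, 2.27% to 2.28% in its other libraries, 1.74% to 1.94% in Snord67KO-2 and 1.55% to 1.80% in 4T1 WT. Like the olfactory and vomeronasal receptor genes, they were highest in Snord67KO-1, above all in its replicate 1, while the order of the other libraries differed. The part of either in the lower calls was not tested.

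The 12 lower genes with the largest fold changes were mostly of this kind. E330013P04Rik, Gm7120 and D830030K20Rik had 0 counts in all 3 libraries of Snord67KO-2 and 58, 55 and 50 counts in Snord67KO-1. Snord67KO-1 was thus at least 8.47-fold, 8.03-fold and 7.30-fold higher, with 3 counts over the group as the floor. Replicate 1 of Snord67KO-1 held 38 of the 50 counts of D830030K20Rik. In E330013P04Rik 43.1% of the counts were at 1 position. Ror1, a receptor tyrosine kinase gene, had 80.4, 35.7 and 15.1 CPM in Snord67KO-1 and 0, 0 and 3.53 CPM in Snord67KO-2, with 92.2% of its counts outside exons. In Bmpr1b, a BMP receptor, and Npas3, a neuronal transcription factor, the highest library was again Snord67KO-1 replicate 1, at 78.6 and 76.7 CPM against 17.8 to 45.3 CPM in the others. Slc25a21, Gm9125, Galnt13, Msra, Ak5 and Mgp completed the 12, and of these 6 Mgp alone had most of its counts inside exons. In all, 32 lower genes had 3 counts or fewer in Snord67KO-2 and 1 higher gene, Cldn4, had so few in Snord67KO-1. Such genes passed the count filter through 1 clone, so their difference follows in part from the filter. Mmp9, Cxcl1, Il34 and Col6a1 each had fewer than 50 counts in 1 clone and also passed through the other. Without Snord67KO-1 replicate 1, 112 genes were lower and 118 higher.

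With positions inside exons alone, 3337 genes passed the filter, and 127 were higher (3.81%) and 125 lower (3.75%). Of the 217 higher genes, 188 were tested again in this way and 118 passed again. Of the 270 lower genes, 71 were tested again and 61 passed again. A further 64 genes were lower and 9 higher in this fit alone. Lcn2 (3.41), Cxcl1 (4.10), Csf3 (3.76), Cldn4 (5.40), S100a4 (-3.11) and Vim (-1.89) had about the same log2 fold changes there as with all positions.

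**Figure D4:**
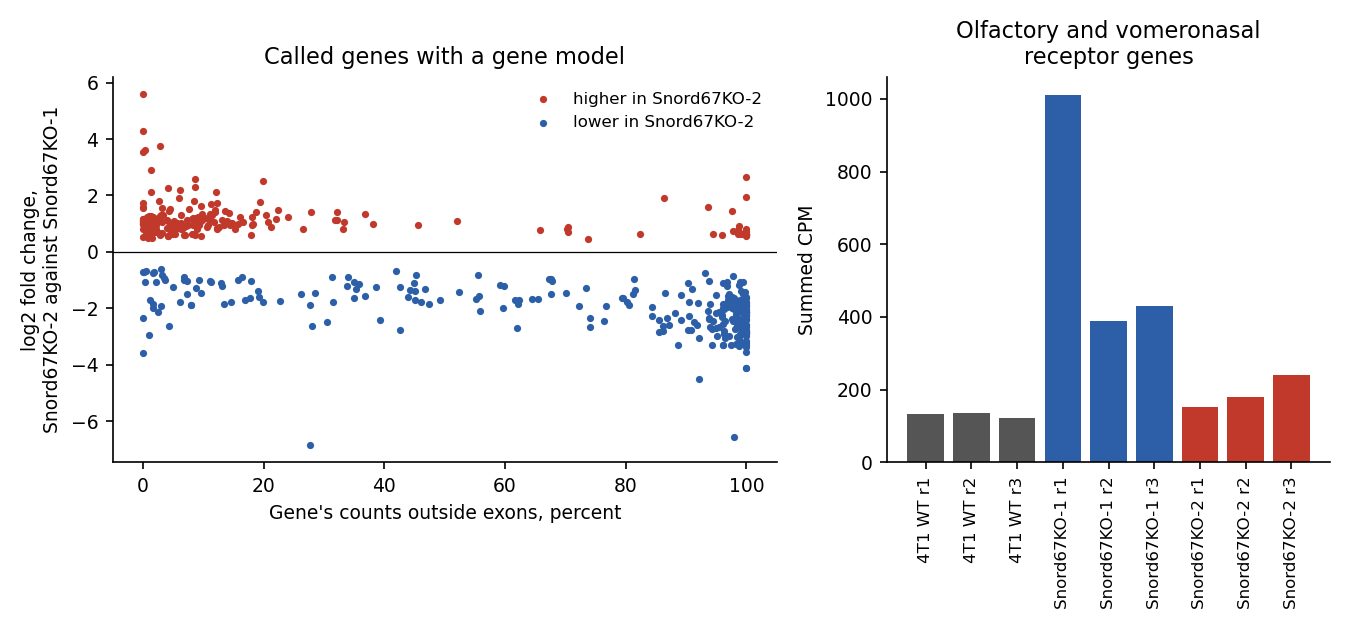
Left, log2 fold change of each called gene against the percentage of its counts outside exons. Right, summed CPM of 362 olfactory and vomeronasal receptor genes in each library. Lower genes (blue) crowd at the right edge of the left panel, and the 3 bars of Snord67KO-1 (389.7 to 1010.1 CPM, the tallest being replicate 1) stand above all others.

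Several of the most abundant genes had much of their counts at 1 position. Cd44 (a hyaluronan receptor) had 13458 to 17249 CPM in Snord67KO-1 and 20486 to 31838 CPM in Snord67KO-2, a log2 fold change of 0.77 (adjusted p = 0.0189), but 98.5% of these counts were outside exons. Inside exons its log2 fold change was -0.36, which did not pass the test (adjusted p = 0.18). Gnb1l, Tmem56, Rsph3a and Dcaf10 were the other most abundant higher genes, with log2 fold changes of 0.62 to 0.72, 99.8% or more of their counts outside exons and 35.9% to 42.3% of them at 1 position. Lars2, the gene with the most counts, had a log2 fold change of 0.66 and did not pass the test (adjusted p = 0.0505). How reads that map to several places were counted is not given, so these totals are uncertain.

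Sdha (a subunit of succinate dehydrogenase) and Csf3 show what a dominant position means for a called gene. Both positions are in the 3′ untranslated region of the last exon, at 74322451 on chromosome 13 (minus strand) for Sdha and at 98703251 on chromosome 11 (plus strand) for Csf3, and neither was marked mispriming. They are the fifteenth base of the windows shown, read from GENCODE M21 transcripts, and capitals mark the longest run that both windows share after that base.
Sdha: aaggaagacagcccactgtgGGCACCATC
Csf3: gtgagccctgccgtgctgaGGCACCATCt

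The position held 93.7% of the counts of Sdha and 45.0% of those of Csf3. Without it the log2 fold change of Sdha went from -1.05 (adjusted p = 0.047) to -0.71 (adjusted p = 0.151), and that of Csf3 from 3.76 to 3.91 (adjusted p = 1.63e-11). The shared run is also part of the linker ligated to the fragments, as listed in the paper's supplement, and the reverse transcription primer is complementary to that linker. Whether the primer annealed to this run within transcripts was not tested. The first 6 bases of the shared run, a word taken from these genes, stood within 14 bases after the highest position in 33 of 91 tested genes where that position held over 30% of the counts (36.3%, Sdha and Csf3 included). They stood there in 6.29% of the 3420 other genes with a window. Vim and S100a4, by contrast, drew their counts from 1110 and 281 positions, of which the highest held 1.87% and 3.07%.

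Gene totals shifted by chromosome. The median log2 fold change was positive on chromosomes 19 (0.36), 16 (0.32), 6 (0.31), 7 (0.26) and 1 (0.16), and negative on chromosomes 17 (-0.25), 13 (-0.23), 3 (-0.22), 15 (-0.17), 8 (-0.16) and 12 (-0.16). On chromosome 19, 20 of 176 genes were higher and 3 lower, and on chromosome 16, 19 of 149 were higher and 3 lower. On chromosome 3, 5 of 348 genes were higher and 35 lower. Over all chromosomes, 4.3% of the genes tested were higher and 5.35% lower. With exons alone the medians were 0.37, 0.33 and 0.31 on chromosomes 19, 16 and 6 and -0.27, -0.26 and -0.24 on chromosomes 13, 3 and 17. Without Snord67KO-1 replicate 1 they were 0.34 on chromosomes 19 and 16 and -0.22 on chromosome 3. Among the higher genes named above, Neat1, Snhg1, Anxa1 and Psat1 are on chromosome 19. Son and Tfrc are on chromosome 16, and Cd9, Hnrnpf, Cald1 and Asns are on chromosome 6.

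Exon counts were also taken as a share per chromosome in each library. Chromosome 3 held 6.87% to 7.05% in Snord67KO-1 and 5.21% to 5.49% in Snord67KO-2, and 5.52% ± 0.243 (SD, n = 3) in 4T1 WT. Chromosome 16 held 1.53% to 1.71% in Snord67KO-1 and 2.04% to 2.16% in Snord67KO-2, and 2.32% ± 0.124 (SD, n = 3) in 4T1 WT. Chromosome 19 held 2.99% to 3.02% and 3.50% to 3.83%. The largest change was on chromosome 9, which carries Lars2, from 20.2% to 21.6% in Snord67KO-1 to 22.8% to 28.1% in Snord67KO-2. On chromosome 7 the clones overlapped (4.03% to 4.89% and 4.26% to 5.23%). The share of all gene counts went against the median on chromosomes 13 and 17, where it was higher in Snord67KO-2 by 0.754 and 0.367 percentage points (exact permutation p = 0.1 and 0.4). It also went against the median on chromosomes 4, 5, 18 and X, where the share was lower in Snord67KO-2 and the medians were 0.01 to 0.06. In exon share the clones did not overlap on 16 of 20 chromosomes, chromosomes 3, 9, 16 and 19 included (two-sided exact permutation test, p = 0.1 each, 0.125 after Benjamini-Hochberg adjustment), and no lower p was possible with 3 against 3 libraries. The shares of a library add up to the whole, so the rise on chromosome 9 lowers the shares of the others. These 16 are therefore not independent results. Against 4T1 WT the median log2 fold changes of Snord67KO-1 and Snord67KO-2 were -0.48 and -0.09 on chromosome 16, -0.24 and 0.09 on chromosome 19, and 0.19 and -0.06 on chromosome 3. These pairs share the 4T1 WT libraries.

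**Figure D5:**
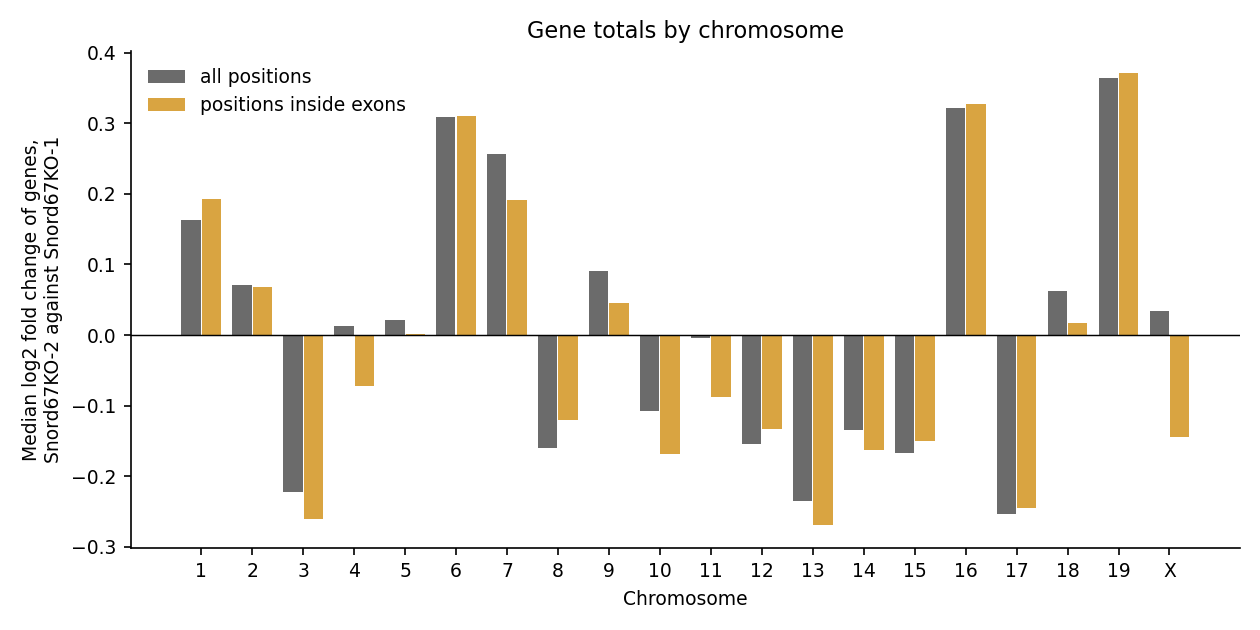
Median log2 fold change of the genes of each chromosome, Snord67KO-2 against Snord67KO-1, with all positions (grey) and with positions inside exons (yellow). Chromosomes 1, 6, 7, 16 and 19 lie above 0.1 and chromosomes 3, 8, 10, 12, 13, 14, 15 and 17 below -0.1 in both, and chromosome Y, with 6 genes, is not drawn.

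Of 6 tested genes on chromosome Y, 2 were higher in Snord67KO-2. Gm20871 had 161, 92.2 and 117 CPM in Snord67KO-1 and 679, 904 and 776 CPM in Snord67KO-2 (log2 fold change 2.65 ± 0.19 SE, adjusted p = 2.02e-08). Ssty1, a spermatid gene, had 140.3, 80.3 and 104 CPM against 375, 454 and 437 CPM (1.95 ± 0.19 SE, adjusted p = 1.69e-06). In both genes 4T1 WT lay between the clones, at 390.0 to 484 CPM and 204 to 257 CPM. Their counts were spread over 522 and 332 positions, all outside exons, and both belong to families with many near-identical copies, so the source of these reads is uncertain.

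The called genes were then placed against 4T1 WT in a fit of all 9 libraries, where 23.8% of genes passed the test for Snord67KO-1 and 4.08% for Snord67KO-2. Among the 270 lower genes, 210 passed it for Snord67KO-1 alone, 5 for Snord67KO-2 alone and 10 for both. Among the 217 higher genes these numbers were 115, 31 and 16. Higher genes of the first kind include Cldn4, Cdh1, Hspd1, Atf4 and Nop56, where Snord67KO-1 was below 4T1 WT. Lcn2, Cxcl1, C3, Mmp9 and Junb are of the second kind, where Snord67KO-2 was above 4T1 WT. In 6 of the genes reported here the clones lay on opposite sides of 4T1 WT and both differed from it. Snord67KO-1 also had the deeper libraries, and the part of depth in these numbers was not tested.

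Of 10 fibroblast, 14 immune and 8 endothelial markers, 1 (Eng) passed the filter of 50 counts, and 9, 13 and 8 had a count in any library. Fibroblast markers summed to 28.3 to 56.1 CPM in Snord67KO-1, 8.93 to 18.4 CPM in Snord67KO-2 and 17.7 to 20.8 CPM in 4T1 WT. Immune markers summed to 20.7 to 74.8, 0 to 24.7 and 10.4 to 13.4 CPM, and endothelial markers to 69.8 to 116, 36.7 to 49.4 and 47.2 to 55.8 CPM. The clones overlapped in the immune sum and not in the other sums, and the part of these cell types in the results was not tested. Mitochondrially encoded genes were not analysed here.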

How the data were processed

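The deposited values are raw counts, 1 per read 3′ end, at each position of the genome in 9 oxidized libraries. Per the methods and processing notes, the authors trimmed reads with cutadapt, merged pairs, mapped them (the notes name STAR and mm10, the methods m39) and counted 3′ ends without normalization. The treatment of reads mapping to several places and of PCR copies, and the meaning of the mispriming column, are not given in the sources used here. Positions were compared with GENCODE M21 (GRCm38). The 63391 marked positions and Rn45s were left out, counts were summed by chromosome and gene, and genes with at least 50 counts over 6 libraries were kept. The clones were compared with edgeR's quasi-likelihood test (TMM factors, Benjamini-Hochberg threshold 0.05). CPM values and comparisons with 4T1 WT came from a fit of all 9 libraries. Library measures and chromosome shares were tested by exact permutation (two-sided). The scripts were tested on simulated counts. Named genes were the 12 called genes per direction with the largest fold change and no overlap, the 5 per direction with most counts, the 4 with the smallest p of each list, Snord67 and Ckap5. Genes outside this rule, such as Csf1, Vcam1, Spp1, Krt8 and Lars2, the promoter words, the windows and the receptor-gene sum were chosen after their values were seen. The members and lists were chosen with earlier results of these data known. R 4.3.3, edgeR 4.0.16, limma 3.58.1, DESeq2 1.42.0, Python 3.11.15 and scipy 1.17.1 were used. The results of some genes are not reported here. Alternatives are given in the closing section.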

Additional observations from a re-analysis of the deposited data

Results flagged for a closer look

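In 6 genes each clone differed from 4T1 WT in the opposite direction, and the direct comparison of the clones passed the test (edgeR's quasi-likelihood test, Benjamini-Hochberg adjusted p below 0.05). The log2 fold changes of Snord67KO-2 against Snord67KO-1 were 2.89 for Ptgs2, 2.65 for Gm20871, 3.76 for Csf3, 1.95 for Ssty1, 2.25 for Epcam and 2.13 for Pogk. In each gene the mean of Snord67KO-1 was below and that of Snord67KO-2 above 4T1 WT. For Csf3 the libraries of 4T1 WT (78.1, 158.6 and 26.5 CPM) overlapped those of Snord67KO-1 (35.5, 56.5 and 13.2 CPM). The adjusted p of Csf3 between these 2 groups was 0.036 (edgeR), and 45.0% of its counts in the clones were at 1 position. Pogk, a gene derived from a transposon, had 20.6, 11.9 and 18.9 CPM in Snord67KO-1, 33.5, 33.8 and 35.4 CPM in 4T1 WT and 89.3, 78.0 and 74.0 CPM in Snord67KO-2 (adjusted p = 0.000679 between the clones). The comparisons with 4T1 WT share its 3 libraries. All counts of Gm20871 and Ssty1 were outside exons, and the source of these reads is uncertain. Outliers were not looked for in groups of 3.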

How the results depend on the processing

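Against 487 called genes (217 higher, 270 lower), the totals were 165 with DESeq2, 323 with a filter of 100 counts, 252 with positions inside exons and 269 with limma voom. Higher genes numbered 87 with DESeq2, 77 with unscaled library sizes, 127 inside exons and 110 at an absolute log2 fold change above 1. Lower genes numbered 78 with DESeq2, 535 with unscaled library sizes, 160 with a filter of 100 counts, 424 with a filter of 1 count, 125 inside exons and 49 with limma voom. Positions outside exons alone, chosen after seeing the data, gave 247 calls (94 higher, 153 lower) among 1141 genes. Leaving out 1 library gave 111 to 474 calls, 74 to 198 higher and 37 to 276 lower, fewest without Snord67KO-2 replicate 2. The cause was not tested. The replicate block gave 416 calls (182 and 234, 406 shared), and the numbers did not pair the samples (correlations of deviations -0.13, 0.01 and -0.13).

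Among called genes, direction turned for Cd44 (-0.36) and Tulp4 (-0.31) inside exons and for Tcea1 (-0.01) outside exons, the last 2 named after their values were seen. It also turned for Eng (-0.04, adjusted p = 0.973), which was at 0.0769 with marked positions kept, 0.0444 without its highest position and -0.277 to 0.282 with 1 library left out. The share of gene counts on chromosome 6 moved to -0.0242 with marked positions kept and between -0.0308 and 0.0787 percentage points with 1 library left out, on chromosome 7 between -0.0982 and 0.188, and on chromosome 19 to -0.000762 and between -0.0565 and 0.145. Of 93 called genes with alternatives of their own, 38 kept the call in each, and 11 lost it in 10 or more, among them Cd9, Csf1, Gas5, Gnb1l, Plau, Pvt1, Sdha, Tfrc and Tmem56. Low depth in Snord67KO-2 limits genes under 26.8 CPM, the limit of 0 counts in its replicate 1.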
